A study of Mus musculus with 8 samples.

Results

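The cyclophilins are peptidyl-prolyl *cis-trans* isomerases, and cyclophilin D (CypD), the product of *Ppif*, is the family member of the mitochondrial matrix. The genes described here are 10 paralogs of *Ppif*, namely *Ppia*, *Ppib*, *Ppic*, *Ppid*, *Ppie*, *Ppig*, *Ppih*, *Ppil1*, *Ppil2* and *Ppil3*. They were taken by gene symbol, with earlier results of these data known, and make up 10 of the 55414 genes measured. The question was whether they shifted when *Ppif* was lost or when its expression vector was introduced.

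Cyclophilins share a domain that binds proline-containing peptides, speeds the rotation of the peptide bond before proline and, in many members, binds the immunosuppressant cyclosporin A. The paralogs differ in where they work. *Ppia* encodes the abundant cytosolic cyclophilin A, *Ppib* and *Ppic* encode proteins of the secretory pathway, *Ppid* encodes a cochaperone of HSP90, and *Ppie*, *Ppig*, *Ppih*, *Ppil1*, *Ppil2* and *Ppil3* encode nuclear proteins found with the splicing machinery. CypD promotes opening of the mitochondrial permeability transition pore, and the other cyclophilins are not known for that role.

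RNA was sequenced from B16F10 cells, a mouse melanoma line, in 4 groups of 2 libraries. WT and CypD KO cells were kept for 24 h at 21% O2, and Control cells, which carry an empty pcDNA vector, and cells labelled CypD OE, which carry pcDNA with *Ppif*, were kept for 24 h at 1% O2. The CypD KO cells came from clones edited with Cas9 and selected in puromycin, whereas both stable lines were selected in G418. Control cells thus differ from WT cells in oxygen, in the vector and in selection, and these cannot be told apart. Likewise, loss of *Ppif* cannot be told apart from clonal and selection effects in CypD KO against WT. The values are TPM (transcript abundance by length, scaled to 1 fixed total per library), and fold changes are differences of log2(TPM + 1) with their standard error (SE) from limma, called at an adjusted p under 0.05 over 13526 tested genes. Whether the 2 libraries of a group came from separate cultures is not stated, so the p-values measure only the spread between these libraries, which may be technical.

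Low values were worth whole fragments, which gave approximately 25.7 to 30.1 M fragments on genes per library. All 10 paralogs passed the filter of 1 TPM in at least 2 libraries, with the thinnest coverage for *Ppie* (approximately 254 to 358 fragments per library) and *Ppih* (287 to 421). The 10 melanocyte lineage markers were all detected, against 0 to 0.03 TPM summed over 5 keratinocyte and 0.41 to 4.21 TPM over 5 endothelial markers. The melanocyte sum moved by group without overlap. It was 16110 to 16230 TPM for WT, 12850 to 13030 for CypD KO, 21240 to 21780 for Control and 13810 to 13990 for CypD OE. Of the 10 markers, 7 were called lower and 2 higher in CypD KO than WT, beside 18.4% lower and 30.1% higher among all genes. The largest of these changes was a rise, that of *Tyr* (1.97, adjusted p = 4.02e-06). In Control against WT 9 were called higher and 0 lower, beside 12.1% each among all genes. The sum of 8 fibroblast markers (2 at 0 in every library) was 34.2 to 37.3 TPM in CypD KO and 9.23 to 21.2 TPM elsewhere, and of the 2 tested, *Postn* was higher in CypD KO (1.91, adjusted p = 9.47e-06) and *Col1a2* lower (-1.79, adjusted p = 0.00176). The sum of 7 leukocyte markers was 22.3 to 23.5 TPM in CypD KO and 1.15 to 4.81 TPM elsewhere, with *Cd68* the only one at 1 TPM or more in any library (21.9 and 23.3 TPM in CypD KO) and 3 at 0 in every library. The part of these markers in the paralog values was not tested. In bulk RNA, fewer cells that express a gene and less RNA per cell cannot be told apart.

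*Ppif*, the targeted gene, came to 50.7 and 49.99 TPM for WT, whereas CypD KO retained 10.4 and 12.1 TPM. It fell by 2.07 on the log2 scale (SE 0.07, adjusted p = 3.81e-06), to 22.4% of the WT mean. Control held 44.6 and 42.3 TPM of it, and the cells labelled CypD OE held 50.3 and 49.3 TPM. The difference of 0.19 (SE 0.07, adjusted p = 0.0794) was not called, and the CypD OE libraries stood no higher than WT. The paper reports CypD overexpression in its stable B16F10 lines by western blot, and protein was not measured here. On these RNA values the name is used as a label only, and no direction for CypD dosage is drawn from these libraries.

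Several paralogs have processed copies elsewhere in the genome, and these sequences decide how far a value belongs to 1 gene. No pair among the 136 pairs of the 17 cyclophilin genes examined shared a stretch of 31 bases, so reads cannot move between paralogs on that basis. *Ppia*, *Ppid* and *Ppih*, in contrast, share such stretches with annotated copies. A window of 30 bases from the exons of *Ppia* on GRCm39 (chr11:6365924-6365953, plus strand) is shown with its copies at 1 TPM or more in any library. Capitals mark bases that differ from the parent gene. This window and that of *Ppih* below are the coding stretches that covered the most copies and then held the most differences. They therefore overstate how far the copies differ. Over all aligned bases the copies shown were 97.8% (*Gm4824*) to 100% (*Gm10123*) identical to *Ppia*. *Gm10123* lies at chr9:96777711-96778200 and *Gm13493* at chr2:51761138-51761630.
*Ppia*: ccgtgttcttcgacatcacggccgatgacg
*Gm10123*: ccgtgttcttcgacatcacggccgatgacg
*Gm13493*: ccgtgttcttTgacatcacggccgatgacg
*Gm4824*: cTgtgttcttcgacatcaTAgccgatgacA
*Gm6063*: ccAtgttcttcgacatcacggccgatgacg
*Gm9234*: ccgtgttcttcgacatcacggcTgatgacg

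*Gm10123* was identical to *Ppia* at 490 of 490 bases, so its reads and those of *Ppia* cannot be separated within that stretch. For *Ppih*, a window at chr4:119177396-119177425 on the minus strand is shown with *Gm11585* (chr11:102014898-102015466), *Gm8719* (chr6:128449818-128450351) and *Ppihl* (chr5:44070486-44071259), which is annotated as protein-coding. *Gm11585*, which is 569 bases long, was identical to *Ppih* at the 467 bases that aligned.
*Ppih*: tggtcgcatgaaaatcgagctctttgcaga
*Gm11585*: tggtcgcatgaaaatcgagctctttgcaga
*Gm8719*: tggtcgcatgaaGatcgagctctttgcagT
*Ppihl*: tggtcgcatgaaGatcgagctctttgcaga

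The copies of *Ppia* together carried 8.07% to 9.02% as much TPM as *Ppia* itself, and those of *Ppih* 31.3% to 47.4% as much as *Ppih*. *Gm43096*, the copy of *Ppid*, carried at most 0.894% of its parent, and no annotated copy was found for the other 7 paralogs. The values of *Ppia* and *Ppih* are therefore given with this limit, and the fits were repeated with the copies added to their parent gene.

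*Ppia*, at chr11:6365443-6369817, was the most abundant paralog in every library. WT gave 4258 and 4317 TPM, CypD KO 2934 and 2897, Control 4455 and 4496, and CypD OE 4105 and 3973. Both CypD KO libraries lay below every other library, whereas the other 6 libraries kept within 3973 to 4496 TPM. *Ppia* fell by 0.56 (SE 0.02, adjusted p = 7.06e-06) in CypD KO, to 68.0% of WT. It was lower by a smaller amount in CypD OE against Control (-0.15, SE 0.02, adjusted p = 0.003), a call that was lost without the trend in the variance (adjusted p = 0.0552), and on scaling to nuclear protein-coding genes the value was -0.065 (adjusted p = 0.0284). Control and WT did not differ past the threshold (0.06, adjusted p = 0.0997).

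The copy *Gm10123* gave 368 and 332 TPM for WT, then 247 and 234 TPM for CypD KO. It fell by 0.54 (SE 0.06, adjusted p = 3.12e-04), to 68.6% of WT, close to the 68.0% of *Ppia*. With all copies added to *Ppia*, its call in CypD KO remained. *Gm11585*, the copy of *Ppih*, gave 17.8 and 21.96 TPM for WT, then 12.9 and 16.1 TPM for CypD KO, a difference of -0.43 (SE 0.17, adjusted p = 0.0692) that was not called.

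**Figure D1:**
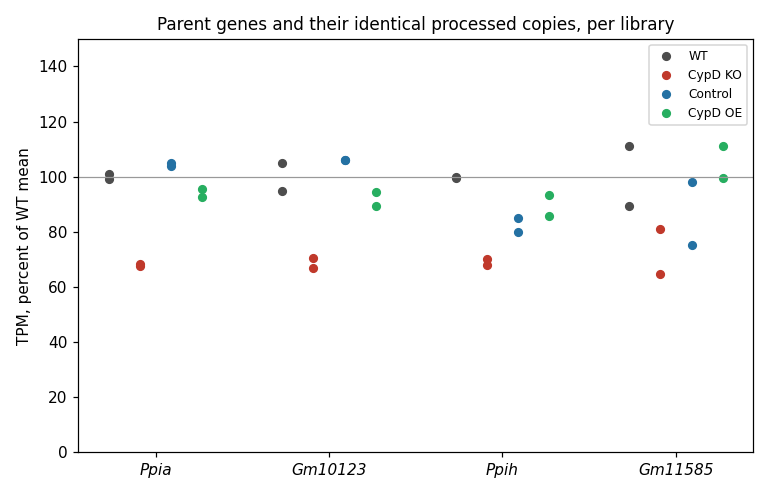
TPM of *Ppia*, its identical copy *Gm10123*, *Ppih* and its copy *Gm11585* (identical over the 467 aligned bases of its 569) in each of the 8 libraries, as a percentage of the WT mean, with 1 point per library. Both CypD KO libraries lie near 68% of WT for *Ppia* and at 66.8% and 70.5% for *Gm10123*, while the points of *Gm11585* spread more widely within each group.

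Of the paralogs of the secretory pathway, *Ppib* (chr9:65967381-65974142) encodes cyclophilin B, a resident of the endoplasmic reticulum that acts in collagen folding. Its TPM values were 265 and 267 (WT), 256 and 272 (CypD KO), 293 and 304 (Control), and 270 and 264 (CypD OE). The CypD KO values enclosed those of WT, and the fold change was -0.01 (SE 0.04, adjusted p = 0.825). *Ppib* was higher in Control than in WT by 0.17 (adjusted p = 0.0223) and lower in CypD OE than in Control by 0.16 on the log2 scale (-0.16, adjusted p = 0.017), so the Control libraries stood above the rest. The rise in Control was not called without a trend (adjusted p = 0.0835), nor when WT replicate 1, WT replicate 2 or Control replicate 2 was left out (0.14 to 0.17). The fall in CypD OE was not called without a trend (adjusted p = 0.0698) or on scaling to nuclear protein-coding genes (-0.077, adjusted p = 0.133). It was also not called without Control replicate 2 (-0.13) or CypD OE replicate 2 (-0.14).

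*Ppic*, on chromosome 18, encodes cyclophilin C, also of the secretory pathway, and was the only paralog above WT in CypD KO past the threshold. Library by library, WT held 96.1 and 103 TPM, CypD KO 117 and 108, Control 78.8 and 82.0, and CypD OE 93.2 and 91.6. No 2 groups overlapped, and Control was the lowest. The rise of 0.18 in CypD KO (SE 0.06, adjusted p = 0.0363) was lost in 7 of 13 alternatives, among them rescaling by median-of-ratios factors (0.08, adjusted p = 0.248) and omission of WT replicate 1 (0.12, adjusted p = 0.173) or CypD KO replicate 1 (0.12, adjusted p = 0.186). *Ppic* was lower in Control than in WT (-0.31, SE 0.06, adjusted p = 0.00903), a call lost without Control replicate 1 (adjusted p = 0.0511). The higher level in CypD OE against Control (0.20, adjusted p = 0.0294) was not called without any 1 of the 4 libraries compared (adjusted p from 0.0605 to 0.127).

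*Ppid* (chr3:79498649-79512483) encodes cyclophilin 40, whose tetratricopeptide repeats bind HSP90, and it was the second paralog in abundance. WT gave 442 and 429 TPM, CypD KO 321 and 341, Control 342 and 316, and CypD OE 393 and 405. CypD KO and Control overlapped at the bottom, the CypD OE libraries lay between, and WT was the highest. *Ppid* fell by 0.39 in CypD KO (SE 0.05, adjusted p = 6.30e-04), to 76.0% of WT. It was likewise lower in Control than in WT (-0.40, SE 0.05, adjusted p = 0.00184) and higher in CypD OE than in Control (0.28, SE 0.05, adjusted p = 0.00435). These 3 calls held in every alternative tried.

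Among the paralogs found with the splicing machinery, *Ppih* (chr4:119157204-119177743) encodes the cyclophilin of the U4/U6.U5 tri-snRNP, bound through PRPF4. Its TPM values were 62.5 and 62.1 (WT), 42.2 and 43.7 (CypD KO), 49.9 and 53.1 (Control), and 58.2 and 53.5 (CypD OE). WT was the highest group and CypD KO the lowest, without overlap with any other. *Ppih* fell by 0.53 in CypD KO (SE 0.06, adjusted p = 3.70e-04), to 68.9% of WT. With its copies added, this value was -0.48 (adjusted p = 0.0022). The lower value in Control against WT (-0.27, adjusted p = 0.0158) was not called with its copies added (adjusted p = 0.0917), nor without WT replicate 1, WT replicate 2 or Control replicate 1 (0.0639 to 0.0811). The difference between CypD OE and Control (0.11, adjusted p = 0.164) was not called, except on scaling to nuclear protein-coding genes (0.20, adjusted p = 0.0215).

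*Ppil3* (chr1:58468332-58488732) encodes a spliceosome-associated cyclophilin and had the largest fall of the 10 in CypD KO on the log2 scale, by a margin over *Ppia* smaller than its SE. Library by library, WT held 128 and 122 TPM, CypD KO 87.6 and 80.8, Control 93.4 and 97.6, and CypD OE 95.5 and 91.6. The WT libraries stood above the 6 others, which lay between 80.8 and 97.6 TPM. *Ppil3* fell by 0.57 in CypD KO (SE 0.05, adjusted p = 2.20e-04), to 67.3% of WT, and was lower in Control than in WT (-0.38, SE 0.05, adjusted p = 0.0035). The CypD OE and Control libraries overlapped (-0.03, adjusted p = 0.711).

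*Ppil1* (chr17:29469777-29483160) encodes a cyclophilin that binds the spliceosomal protein SNW1. WT gave 74.1 and 82.3 TPM, CypD KO 61.1 and 69.3, Control 79.9 and 80.5, and CypD OE 86.4 and 79.5. The CypD KO libraries were below all others. The fall of 0.26 in CypD KO (-0.26, SE 0.08, adjusted p = 0.032) was not called without WT replicate 2 (-0.18, adjusted p = 0.157) or CypD KO replicate 1 (-0.17, adjusted p = 0.161), nor in 3 further alternatives.

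*Ppil2* (chr16:16900219-16929128) encodes a nuclear cyclophilin with a U-box, the fold of a class of ubiquitin ligases. Its TPM values were 73.5 and 78.3 (WT), 75.3 and 79.5 (CypD KO), 82.7 and 86.6 (Control), and 74.8 and 75.4 (CypD OE). WT and CypD KO overlapped (0.03, SE 0.05, adjusted p = 0.676). Its lower level in CypD OE against Control (-0.17, adjusted p = 0.0353) was not called without any 1 of the 4 libraries compared (0.0571 to 0.158), with no filter (0.0577), without a trend (0.0762), or on scaling to nuclear protein-coding genes (-0.088, adjusted p = 0.198).

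*Ppie* (chr4:123017508-123033786), whose product combines a cyclophilin domain with an RNA recognition motif, was the least abundant paralog. Library by library, WT held 32.5 and 31.1 TPM, CypD KO 25.7 and 24.5, Control 28.8 and 24.5, and CypD OE 27 and 20.9. Every library outside WT was below both WT libraries, yet no comparison passed the threshold, with -0.33 for CypD KO (SE 0.13, adjusted p = 0.0698), -0.25 for Control against WT (0.198) and -0.15 for CypD OE against Control (0.388). The CypD KO value was called in 4 of 13 alternatives (adjusted p from 0.0135 to 0.0445). *Ppig* (chr2:69552889-69584368), which encodes a large cyclophilin with an arginine-serine-rich tail, gave 90.5 and 97.8 TPM (WT), 95.9 and 84.2 (CypD KO), 91.6 and 76.8 (Control), and 87.2 and 73.4 (CypD OE). In *Ppig* neighbouring groups overlapped, while both CypD OE libraries lay below both WT libraries, and its 3 fold changes lay between -0.16 and -0.07 with adjusted p of 0.358 or more.

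**Figure D2:**
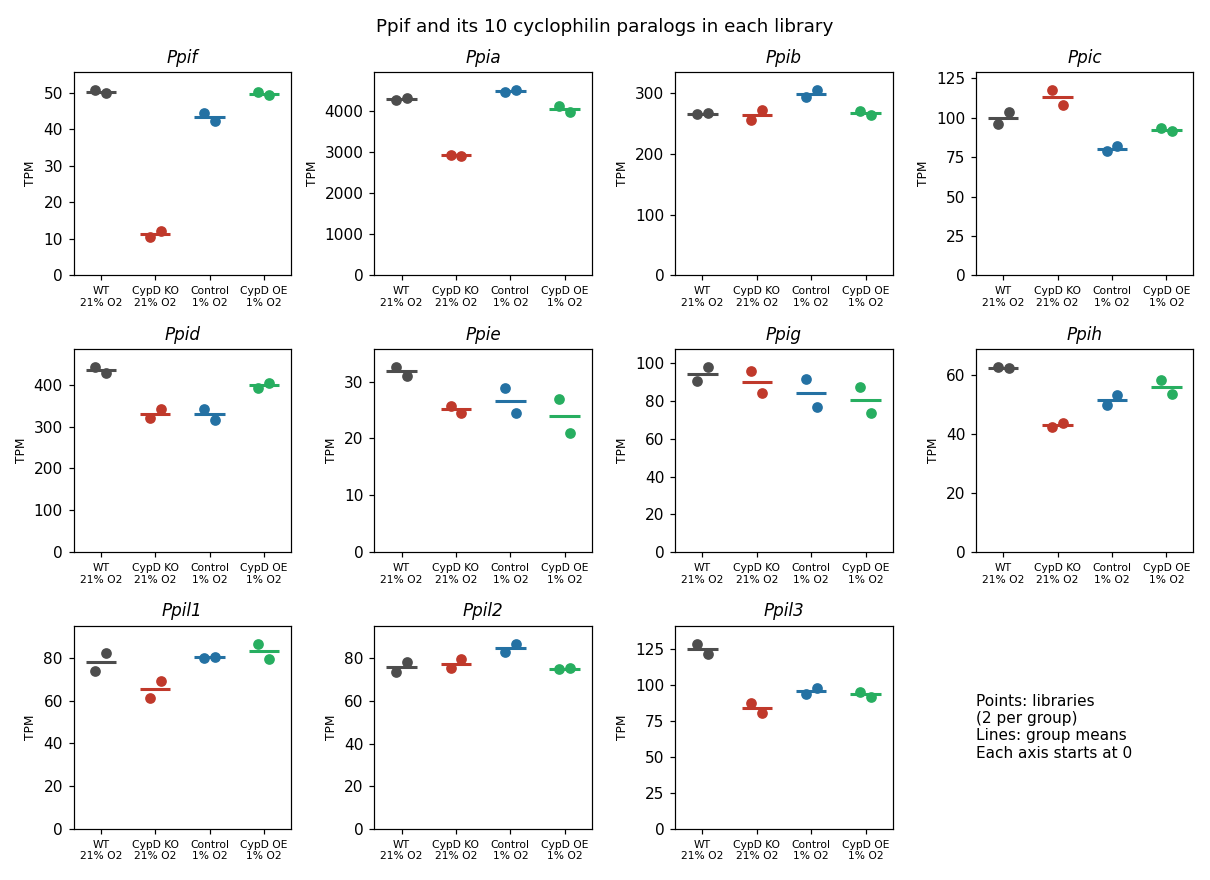
TPM of *Ppif* and of each of the 10 paralogs in the 8 libraries, 1 panel per gene, with points for libraries, lines for the means of the 2 libraries of a group, and axes that start at 0. *Ppif* drops to 10.4 and 12.1 TPM in CypD KO, where *Ppia*, *Ppid*, *Ppih* and *Ppil3* also lie below WT but keep 67.3% to 76.0% of its mean.

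In WT cells the order of the paralogs by TPM, which is scaled by transcript length, was *Ppia* (4287 ± 41.5, SD, n = 2), *Ppid* (436 ± 9.13), *Ppib* (266 ± 1.26), *Ppil3* (125 ± 4.82), *Ppic* (99.8 ± 5.23), *Ppig* (94.2 ± 5.20), *Ppil1* (78.2 ± 5.85), *Ppil2* (75.9 ± 3.39), *Ppih* (62.3 ± 0.283) and *Ppie* (31.8 ± 1.03). *Ppic* and *Ppig* overlapped, as did *Ppil1* and *Ppil2*, and the other neighbours did not. *Ppif* itself, at 50.3 ± 0.488 TPM, stood between *Ppih* and *Ppie*. *Ppia* ranked 15 to 25 among all genes of a library.

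In CypD KO against WT, 6 of the 10 paralogs were called, 5 lower and 1 higher. Over all genes tested 48.4% were called, 18.4% lower and 30.1% higher. Of the paralogs, 3 were called with a log2 fold change of -0.5 or lower (*Ppia*, *Ppih* and *Ppil3*), against 6.43% of all genes. With its copies added, *Ppih* was still called but fell short of that size (-0.48). The median fold change of the 10 was -0.29, and that of all genes 0.09. Rescaling by median-of-ratios factors turned the split of all called genes from 2486 lower and 4066 higher to 3369 lower and 3274 higher, and the paralogs then stood at 6 lower and 0 higher, with *Ppic* no longer called and *Ppie* called. The CypD KO libraries lay wholly below the WT libraries for 6 paralogs, wholly above for 1 (*Ppic*), and overlapped for 3, where 29.6% of all genes lay below and 44.4% above. *Ppia*, *Ppid*, *Ppih* and *Ppil3* kept their calls in all 13 alternatives, and their fold changes ranged from -0.66 to -0.35.

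In the libraries labelled CypD OE against Control, 5 paralogs were called, *Ppia*, *Ppib* and *Ppil2* lower and *Ppic* and *Ppid* higher. Among all genes 37.4% were called, 18.3% lower and 19.0% higher. The paralogs' fold changes lay between -0.17 and 0.28, with a median of -0.05 against 0.002 for all genes. The libraries did not overlap for 6 paralogs, 3 lower and 3 higher (33.9% and 34.8% of all genes). The count fell to 3 without Control replicate 1 or CypD OE replicate 1, and to 2 without Control replicate 2 or CypD OE replicate 2. Scaling TPM to the nuclear protein-coding genes, which took 78.8% to 84.3% of TPM per library with the lowest shares in CypD OE, turned the split of all called genes from 2481 lower and 2576 higher to 1950 lower and 3561 higher. On that scale the paralogs called were 1 lower and 3 higher.

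Control against WT, which sets 1% O2 with the vector beside 21% O2 without it, gave 5 called paralogs, *Ppic*, *Ppid*, *Ppih* and *Ppil3* lower and *Ppib* higher. Among all genes 24.2% were called, 12.1% lower and 12.1% higher. The median fold change was -0.21 for the paralogs and 0.01 for all genes. The Control libraries were below WT without overlap for 5 paralogs and above for 3 (29.8% and 32.2% of all genes). The count was 3 without WT replicate 1, WT replicate 2 or Control replicate 1, and the number of all genes called fell from 3269 to between 2016 and 2140 with any 1 of the 4 libraries left out. This comparison shares its WT libraries with CypD KO against WT, and its Control libraries with CypD OE against Control, so the values are given side by side only. *Ppid* stood at -0.39 and -0.40 in CypD KO and Control against WT, *Ppil3* at -0.57 and -0.38, *Ppih* at -0.53 and -0.27, *Ppia* at -0.56 and 0.06, and *Ppic* at 0.18 and -0.31.

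**Figure D3:**
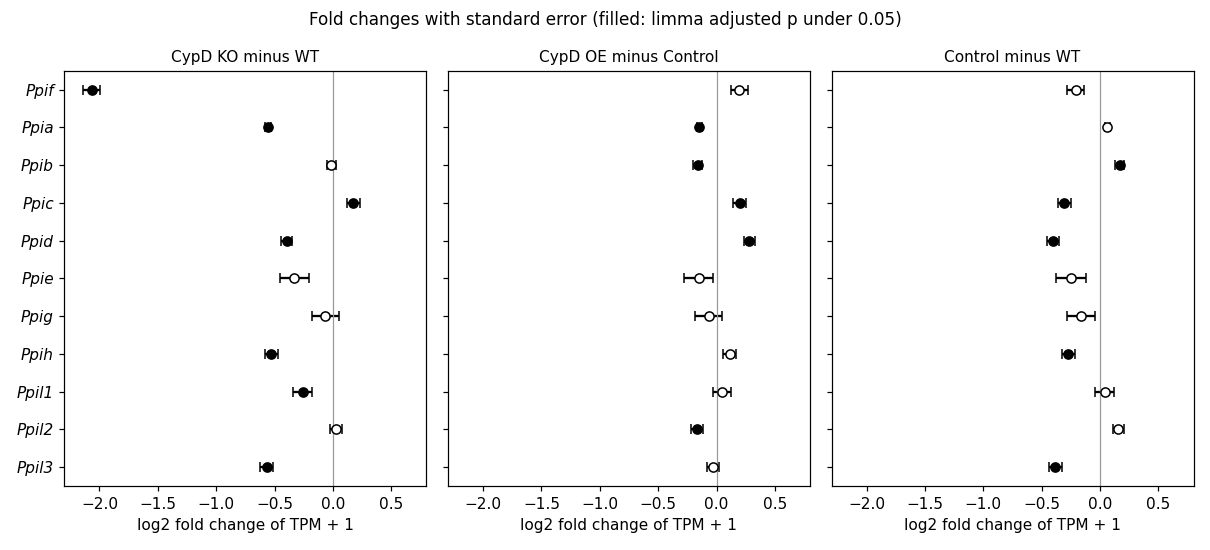
Log2 fold changes of TPM + 1 for *Ppif* and the 10 paralogs in 3 panels (CypD KO against WT, CypD OE against Control, Control against WT), with bars of 1 SE, and filled symbols for a limma adjusted p under 0.05. *Ppif* is at -2.07 in CypD KO minus WT, where the paralogs lie between -0.57 and 0.18, and *Ppic* (called or not by scaling) is the only filled symbol right of 0 in that panel.

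The difference of effects, CypD KO minus WT less CypD OE minus Control, tests whether a paralog moved unequally in the 2 comparisons, each with its own reference group and oxygen level. It was called for 4 paralogs, all lower, against 46.2% of all genes in either direction and 18.8% lower. These were *Ppid* (-0.67, adjusted p = 3.13e-04), *Ppih* (-0.64, adjusted p = 8.19e-04), *Ppil3* (-0.54, adjusted p = 0.00151) and *Ppia* (-0.41, adjusted p = 1.22e-04), and they were called in all 16 alternatives. For *Ppia*, both comparisons were negative, and the call says that the fall in CypD KO was the larger. For *Ppic*, the rise in CypD KO and that in CypD OE against Control differed by -0.02 (adjusted p = 0.837).

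**Figure D4:**
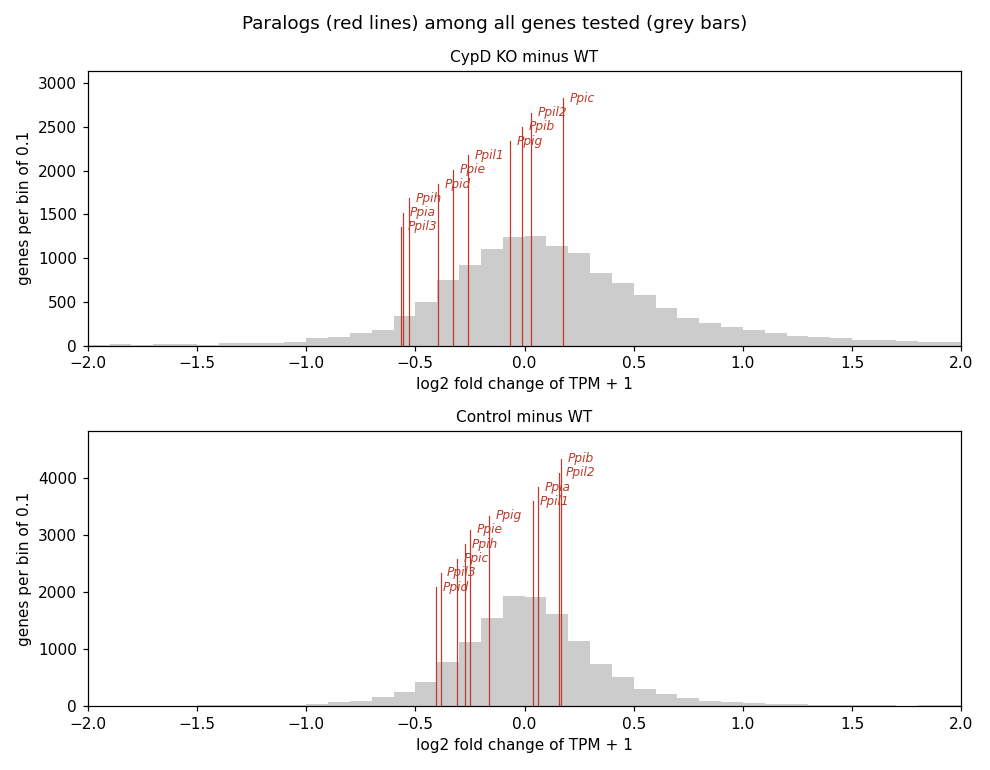
Distribution of log2 fold changes of the 13526 tested genes (grey bars, genes per bin of 0.1) in CypD KO minus WT and Control minus WT, with a red line at each paralog (line heights only separate the labels). In CypD KO minus WT, *Ppil3*, *Ppia* and *Ppih* lie left of most genes, with 6.42%, 6.71% and 7.50% of genes below them, whereas *Ppic* lies near the middle, with 57.4% below.

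Because *Ppia* outweighs the rest, the pooled cyclophilin RNA followed it. The 17 cyclophilin genes together gave 5869 ± 55.4 TPM for WT, 4268 ± 14.8 for CypD KO, 5929 ± 8.13 for Control and 5560 ± 130 for CypD OE (SD, n = 2). The CypD KO pool was 72.7% of WT. Of the 1600 TPM lost, 1372 TPM (85.7%) were *Ppia* and 39.1 TPM were *Ppif*. *Ppif* made up 0.846% to 0.869% of the pool in WT and 0.244% to 0.284% in CypD KO, and *Ppia* made up 68.0% to 75.7% across the libraries. Without *Ppia*, the other 9 paralogs summed to 1269 ± 5.66 TPM for WT, 1093 ± 14.9 for CypD KO, 1131 ± 13.6 for Control and 1171 ± 21.8 for CypD OE. WT was thus the highest group by this sum, without overlap.

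The 6 other cyclophilin genes comprise *Ppil4*, *Ppil6*, *Ppwd1*, *Cwc27*, *Nktr* and *Ranbp2*, and 5 were tested, since *Ppil6* reached at most 0.26 TPM. In CypD KO against WT only *Ppil4* was called, with 42.5 and 45.1 TPM in WT and 33.0 and 34.4 TPM in CypD KO (-0.37, SE 0.06, adjusted p = 0.00224). *Cwc27*, which encodes a spliceosomal cyclophilin, gave 24.9 and 25.5 TPM (WT), 17.2 and 18.3 (Control), and 31.8 and 32.9 (CypD OE). Its difference of 0.83 between CypD OE and Control (adjusted p = 9.66e-05) was larger than that of any of the 10 paralogs, and it was lower in Control than in WT (-0.48, adjusted p = 0.00187). In CypD OE against Control 3 of the 5 were called higher and 0 lower, beside 19.0% higher among all genes. Besides *Cwc27* these were *Ppwd1* (0.32, adjusted p = 0.00989), also above any of the 10 paralogs, and *Ranbp2* (0.21, adjusted p = 0.0488). Of 13 alternatives, the call of *Ranbp2* was lost in 7 (values from 0.14 to 0.30) and that of *Ppwd1* in 2 (0.29 to 0.40). The count of 3 called higher thus did not hold in every alternative. *Nktr*, a large cyclophilin of the nucleus, was higher in Control than in WT (0.37, adjusted p = 0.00897), but not past the threshold without WT replicate 1 or Control replicate 1 (0.0504 and 0.0507).

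Partner genes of the paralogs were examined by function, beside the shares of all genes given above for each comparison. Of 15 spliceosome partners, 9 were lower and 0 higher in CypD KO against WT (median -0.24). The count of lower genes was smaller whenever 1 library of the comparison was left out. Among the 9 were *Snrnp200* (-0.49, adjusted p = 2.17e-04), the helicase that unwinds U4/U6, *Prpf31* (-0.46, adjusted p = 8.12e-05), a tri-snRNP assembly factor, and *Prpf8* (-0.44, adjusted p = 8.45e-05), the scaffold of the catalytic core. *Isy1* was also called (-0.37, adjusted p = 0.0311), but not without WT replicate 2 or CypD KO replicate 2 (0.151 and 0.1501). Of the same 15, 7 were lower and 0 higher in Control against WT (median -0.17), a count of 3 without WT replicate 2 and 4 without Control replicate 2. In CypD OE against Control 4 were higher and 2 lower (median 0.02), among the former *Isy1* (0.49, adjusted p = 0.0143) and *Prpf31* (0.23, adjusted p = 0.00249), and these counts became 6 and 0 on scaling to nuclear protein-coding genes and ranged from 1 to 3 and 0 to 3 with 1 library left out.

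Of 12 HSP90 cochaperones and chaperones around *Ppid*, 7 were lower and 0 higher in CypD KO (median -0.28). *Fkbp4*, an immunophilin that competes with cyclophilin 40 for HSP90, dropped from 569 and 564 TPM (WT) to 375 and 407 TPM (CypD KO) (-0.53, adjusted p = 8.41e-05). *Hsp90ab1*, which encodes the constitutive cytosolic HSP90, dropped from 2960 and 2935 TPM (WT) to 2195 and 2203 TPM (CypD KO) (-0.42, adjusted p = 9.49e-06). *Ppp5c*, a phosphatase that binds HSP90 (-0.45, adjusted p = 0.00256), and *Hspa8*, the constitutive HSC70 (-0.39, adjusted p = 8.16e-04), were lower as well. In Control against WT, 2 of the 12 were higher and 3 lower (median -0.04). In CypD OE against Control, 2 were higher and 5 lower (median 0.009). The counts in these other comparisons shifted among the alternatives.

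Of 14 folding factors of the endoplasmic reticulum, where *Ppib* acts, 10 were lower and 0 higher in CypD KO (median -0.26), although *Ppib* itself was at -0.01. In Control against WT, 12 of these 14 were higher and 1 lower (median 0.30), and in CypD OE against Control 12 were lower and 1 higher (median -0.56). *Hsp90b1*, the HSP90 of the endoplasmic reticulum, gave 1522 and 1543 TPM (WT), 1190 and 1228 (CypD KO), 2268 and 2239 (Control), and 1138 and 1166 (CypD OE). *Pdia6*, a disulfide isomerase, and *Hspa5*, the luminal HSP70, were lower in CypD KO by -0.40 (adjusted p = 4.47e-05) and -0.34 (adjusted p = 1.50e-04), as was *Sdf2l1* (-0.37, adjusted p = 5.19e-04). *Ppib* had the sign of the list's majority in Control against WT and in CypD OE against Control, with smaller values of 0.17 and -0.16.

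The other families of prolyl isomerases gave mixed values. Of 17 FKBP family genes, 16 were tested, and 4 were higher and 5 lower in CypD KO (median -0.08), beside 30.1% higher and 18.4% lower among all genes. *Fkbp7* rose from 9.16 and 8.85 TPM in WT to 32.3 and 32.9 TPM in CypD KO (1.75, adjusted p = 1.12e-05), *Fkbp14* rose by 1.09 (adjusted p = 6.24e-04), *Fkbp10* fell from 9.93 and 11.2 TPM to 2.48 and 2.72 TPM (-1.68, adjusted p = 7.50e-05), and *Fkbp6* was lower (-0.71, adjusted p = 3.90e-05). Each of these 4 differences was larger than that of any of the 10 paralogs in CypD KO. Neither of the 2 parvulins was called in any of the 3 comparisons. *Bsg*, which encodes the cell-surface receptor for secreted cyclophilin A, gave 439 and 424 TPM (WT), 853 and 894 (CypD KO), 933 and 958 (Control), and 369 and 380 (CypD OE). It rose in CypD KO (1.02, adjusted p = 3.51e-06), where *Ppia* fell.

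*Ppia* is also widely used as a reference gene for RT-qPCR, so its stability was set beside that of 17 other such genes. The highest library was 1.55 times the lowest for *Ppia*, which placed it 12 of 18 from the most even. *Eef2* was the most even (1.12 times), followed by *Rps18* (1.17) and *Polr2a* (1.18), while *Gapdh* (1.81), *B2m* (3.47) and *Pgk1* (4.56) varied most. In CypD KO against WT, 13 of the 18 genes were called, 8 higher and 5 lower, where 48.4% of all genes were called, 30.1% higher and 18.4% lower. A gene measured relative to *Ppia* in CypD KO and WT would thus be compared against a reference that differed by 0.56 on the log2 scale, and relative to *Gapdh* (0.66, adjusted p = 6.41e-06) or *B2m* (1.72, adjusted p = 1.24e-06) against one that differed the other way.

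**Figure D5:**
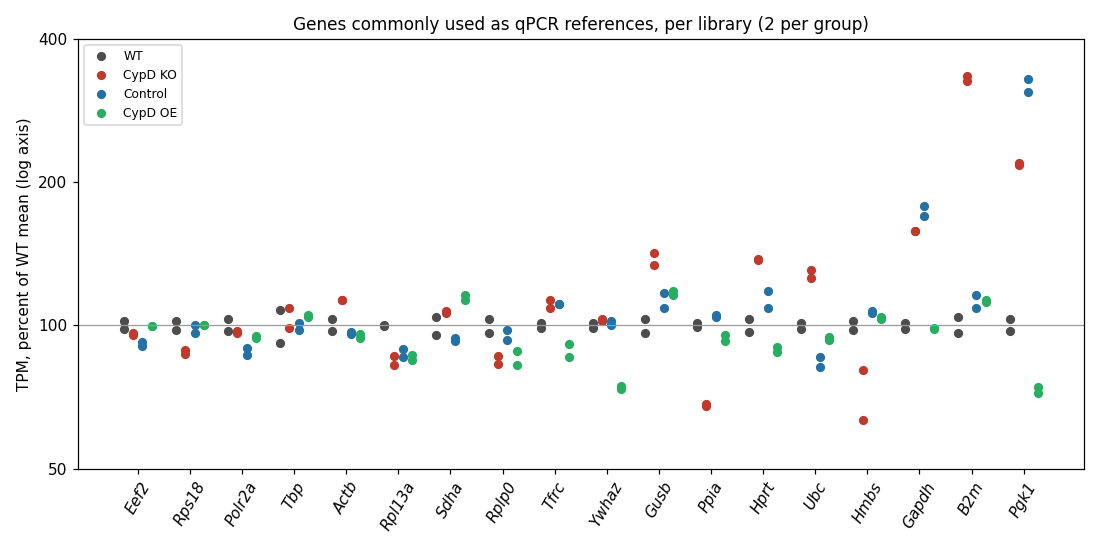
TPM of 18 genes commonly used as RT-qPCR references in each of the 8 libraries, as a percentage of the WT mean of each gene on a log axis, ordered by the ratio of the highest to the lowest library. *Ppia* lies at 67.6% and 68.4% of WT in CypD KO, while *B2m* and *Pgk1* at the right exceed 200% in some libraries.

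For the pair of paralogs with the widest range of group means, *Ppia* (0.62 on the log2 scale) and *Ppil3* (0.57), the genes with the most similar profile over the 8 libraries were sought among 8443 genes of at least 10 TPM on average. *Tufm* (r = 0.996), *Epha3* (0.996) and *Enpp2* (0.994) were most like *Ppia*, and *Acly* (0.985), *Uqcrc2* (0.984) and *Ets1* (0.982) most like *Ppil3*. The likeness is in shape, not size, as *Enpp2* averaged 98.9 TPM in WT and 3.49 TPM in CypD KO, and *Tufm* 89.8 and 78.5 TPM. The libraries fall into 4 pairs of replicates, so these correlations are a description.

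The groups also differ in oxygen, and the promoters were therefore read for the core letters of the hypoxia response element, ACGTG or GCGTG on either strand. A promoter was the 250 bases before the start of the Ensembl canonical transcript of a gene on GRCm39. Of 21627 promoters, 17.0% held ACGTG and 31.2% held GCGTG. Of the 10 paralogs, 1 held ACGTG (*Ppib*) and 4 held GCGTG (*Ppib*, *Ppic*, *Ppig* and *Ppil1*). CACGTG, which contains ACGTG on both strands, was in 6.29% of promoters and in 0 of the 10. *Ppif* held GCGTG at 2 places. The paper, by PROMO prediction, reports finding no putative site for the hypoxia-inducible factor HIF1 in the CypD promoter. That prediction covered a longer stretch by another method, so it and a match of letters are unlike measures. The windows at chr9:65967337-65967361 (*Ppib*, plus strand), chr14:25694504-25694528 and chr14:25694516-25694540 (*Ppif*, plus strand) are shown with the motif in capitals, because *Ppib* was the paralog called higher in Control and *Ppif* the targeted gene.
*Ppib*: gagggctgtaACGTGgcagccaccc
*Ppif*: cgcggcggagGCGTGgaggggggcg
*Ppif*: gtggagggggGCGTGgtctcgaagc

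The match of *Ppib* lies 34 bases before its start. The annotated *Ppif* gene begins at chr14:25694522, inside both printed *Ppif* windows, because its canonical transcript starts further in. Likewise, the stretches read as promoters of *Ppig* and *Ppil3* lay wholly within their annotated genes, and those of *Ppid* and *Ppie* partly. *Ppic*, *Ppig* and *Ppil1*, which also held GCGTG, were lower, not called and not called in Control against WT. The shares of the paralogs that hold a motif rest on 10 genes, and a match is a description of letters only.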

How the data were processed

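RNA-seq was performed on 8 libraries of B16F10 cells, assigned to WT, CypD KO, Control and CypD OE from the sample labels, and 0 columns were left without a sample. Replicate numbers follow the suffix in the library titles. The authors prepared ribosomal RNA-depleted libraries, used Cutadapt 3.4 for trimming, STAR 2.7.8a for alignment (Ensembl GRCm39) and RSEM 1.3.1 for quantification. The deposited values are TPM, scaled by the authors to a fixed total per library and written to 2 decimals, so every value depends on all other genes. Reads with several matching genes are apportioned by RSEM. The authors' own tests used DESeq2 1.26.0 on read counts, which were not used here.

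The test was limma 3.58.1 (R 4.3.3) on log2(TPM + 1) for the 13526 genes that reached 1 TPM in 2 or more of the 8 libraries, with 4 group means, eBayes with a trend, two-sided p-values, Benjamini-Hochberg adjustment over all genes tested and a threshold of 0.05. An exact permutation test of 2 against 2 libraries cannot go below p = 0.333 and was not used. Depth was estimated from the steps between low values: 1 fragment per kb of effective length was worth 0.0815 to 0.098 TPM, and 83.2% to 86.3% of low values lay within 0.15 of a whole fragment. Copies of the paralogs were annotated genes sharing at least 50% of their 31-mers with a paralog in GENCODE transcripts on GRCm39. Promoters were placed by the Ensembl canonical transcripts of the same annotation.

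The genes named are the 10 paralogs, *Ppif*, the other cyclophilins, copies at 1 TPM or more, up to 4 genes per list with the largest called change in CypD KO against WT, and the 3 genes most correlated with each of the 2 most variable paralogs. The paralogs and lists were chosen with earlier results of these data known. *Eef2*, *Rps18* and *Polr2a* were named after their values were seen. Alternatives were a pseudocount of 0.1 TPM, no filter, a stricter minimum of 5 TPM, rescaling by median of ratios, a replicate block, eBayes without a trend, the 4 libraries of a comparison alone and leaving out each library. Adding copies to their parent and scaling to nuclear protein-coding genes were alternatives chosen after seeing the data. Python 3.11.15 and Biopython 1.88 were used for the other steps.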

Additional observations from a re-analysis of the deposited data

How the results depend on the processing

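Of 550 refits of the 40 fold changes of the paralogs, 474 kept direction and side of the threshold, 40 lost a call, 13 gained one and 23 changed sign, and every change of sign was of a value that was not called. The number of paralogs called in CypD OE minus Control was 3 with no filter and 1 without a trend, and 2 to 3 when 1 library was left out. In Control minus WT it was 3 to 4 when 1 library was left out, and all genes called there went from 3269 to between 2016 and 2140. For CypD KO minus WT it ranged from 4 to 7 and for the difference of effects from 4 to 5. *Ppif* in CypD OE minus Control was called when scaled to nuclear protein-coding genes (0.28, adjusted p = 0.0187) and with the 4 libraries alone (0.19, adjusted p = 0.047), while its adjusted p over all alternatives ranged from 0.0187 to 0.271. The cause was not tested.

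Signs also changed for *Ppil2* in CypD KO minus WT after median-of-ratios rescaling (-0.071), for *Ppig* in the difference of effects after that rescaling (-0.0903) and nuclear coding scaling (-0.085), and on the latter scale in CypD OE minus Control for *Ppig* (0.015) and *Ppil3* (0.052). With 1 library left out, values in CypD KO minus WT ran from -0.057 to 0.033 for *Ppib*, -0.158 to 0.028 for *Ppig* and -0.017 to 0.073 for *Ppil2*. In CypD OE minus Control they ran from -0.329 to 0.023 for *Ppie*, -0.193 to 0.058 for *Ppig*, -0.013 to 0.107 for *Ppil1* and -0.061 to 0.0015 for *Ppil3*, and in Control minus WT from -0.038 to 0.113 for *Ppil1*. In the difference of effects they ran from -0.0799 to 0.035 for *Ppic*, -0.352 to 2.83e-05 for *Ppie* and -0.124 to 0.128 for *Ppig*.

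With the replicate number as a block, 6 paralogs were called in CypD KO minus WT (0 of them higher), 4 in CypD OE minus Control, 6 in Control minus WT and 5 in the difference of effects. The numbers are shared by label only: deviations of same-numbered libraries correlated at 0.11 for CypD KO and WT, -0.0018 for CypD OE and Control, and -0.019 for Control and WT. Depth and the 2 libraries per group limit the precision of every value.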
